A study of Drosophila melanogaster with 6 samples.

Results

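7SL, RNase MRP RNA, RNase P RNA and 7SK are short structural noncoding RNAs that act inside stable protein complexes, and their reads were followed here through an eCLIP experiment on the protein Asterix (Gtsf1). The members were all annotated features whose class name marks a structural RNA other than a small Cajal body RNA (scaRNA), together with every feature named 7SL or 7SK. The rule gave 6 features of 123041 with at least 1 read in any library. They belong to 5 genes and 4 distinct RNAs: a pair of 7SL genes, CR32864 and CR42652, the annotated RNase P RNA transcripts RA and RB, RNase MRP RNA and 7SK. The rule used names only and no measured value.

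The libraries came from OSS cells, a Drosophila melanogaster line of ovarian somatic sheath cells. In eCLIP, ultraviolet light links RNA to the proteins it touches, RNase trims the RNA, a protein is pulled down, and the RNA that comes with it is sequenced beside an input library. The labels' protocol has the cells transfected with a plasmid (pAWG) for Asterix carrying a TEV-Strep tag, which was captured on MagStrep XT beads, so the bait was an introduced copy, and the endogenous gene was not stated to be removed. The crosslinked (XL) groups, irradiated at 254 nm with 400 mJ, held 2 pull-down (IP) and 2 input libraries, and the non-crosslinked (non-XL) groups held 1 of each, so values of the latter have no replicate check. The labels name no separate cultures for the replicates, so the p-values measure only the spread between these libraries, which may be technical.

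7SL is the RNA scaffold of the signal recognition particle, which binds the signal peptides of secretory and membrane proteins as they leave the ribosome and brings them to the endoplasmic reticulum. RNase P RNA is the catalytic core of the enzyme that removes the leader of precursor tRNAs, and RNase MRP RNA is its relative in the cleavage of precursor rRNA. 7SK holds the kinase P-TEFb in an inactive complex with Hexim and so limits the release of paused RNA polymerase II. Asterix is a zinc finger protein that acts with Piwi in the silencing of transposons.

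Annotated reads numbered 12391586 to 13658478 in the inputs and 2018241 to 2921685 in the IP libraries. Of these, rRNA took 85.6% to 87.0% in the inputs and 60.1% to 69.5% in the IP libraries. Levels below are in reads per 1000000 annotated reads (CPM), a scale on which all other RNAs together take a larger part of the IP libraries than of the inputs. In the 3 inputs, 7 of 8 markers of ovarian somatic cells had more than 3 reads in every library (summed 285 to 351 CPM), against 1 of 8 germline markers (summed 1.13 to 1.88 CPM, with vas, aub, AGO3, nos, osk and bam at or under 3 reads). Of 4 blood cell markers 3 passed the same mark (summed 30.5 to 40.5 CPM), and of 5 fat body markers 0 did. In these bulk libraries, fewer cells with an RNA and less RNA per cell cannot be told apart.

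All 5 genes lie on chromosome arm 3R in the RefSeq annotation of Release 6 of the genome (dm6), a build that the submitters' processing notes list beside mm10. The 7SL genes span 3R:6822500-6822798 (CR32864) and 3R:6820131-6820429 (CR42652), each 299 bases long. They are 2070 bases apart, with 2 tRNA genes between them. 7SK, listed in RefSeq as snRNA:7SKa, spans 3R:7474553-7474996, which is 444 bases. No other annotated gene overlaps these 3 loci. RNase MRP RNA spans 3R:23730048-23730429 (382 bases) and overlaps the gene CG10365, and RNase P RNA spans 3R:31217364-31217662 (299 bases) and overlaps ATPsynC, a gene for a subunit of the mitochondrial ATP synthase. Whether reads were counted by strand is not given in the sources used here, so reads from RNase MRP RNA and RNase P RNA and from the genes that overlap them cannot be told apart with certainty.

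The 7SL genes received almost the same reads in every library. CR32864 had 30224 reads in the non-XL input, 13983 and 16044.5 in the XL inputs, 9436.5 in the non-XL IP, and 3889 and 2769.5 in the XL IP libraries. CR42652 was lower by 12 reads, by 6 and 7, by 8, and by 1 and 9 in the same order. That difference was at most 0.163% of the 7SL reads of a library. Of the 36 member values, 10 ended in 0.5, as values do when a read is divided equally between features. The pair therefore counts as one measurement, and 7SL is given below as the sum of its genes, while the tests were made on each feature. RNase P RNA transcripts RA and RB belong to the same gene and also had similar reads, so their calls are not independent.

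7SL was the most abundant of the 4 RNAs, and its level was highest in the libraries without crosslinking. It had 4835 CPM in the non-XL input, 2256 and 2349 CPM in the XL inputs, 9347 CPM in the non-XL IP, and 3524 and 1893 CPM in the XL IP libraries. Both non-XL libraries lay above all 4 XL libraries. The XL IP libraries lay on either side of the XL inputs and differed from each other far more than the inputs did, with 2708 CPM ± 1153 against 2303 CPM ± 65.4 (mean ± SD, n = 2 each).

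RNase MRP RNA came next, with 2767 CPM in the non-XL input, 1572 and 1610 CPM in the XL inputs, 1915 CPM in the non-XL IP, and 1114 and 1822 CPM in the XL IP libraries. As for 7SL, both non-XL libraries lay above all XL libraries, and the XL IP libraries bracketed the XL inputs. Where 7SL was the higher of the XL IP replicates, in replicate 1, RNase MRP RNA was the lower.

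RNase P RNA, summed over its transcripts, had 229 CPM in the non-XL input, 356 and 344 CPM in the XL inputs, 143 CPM in the non-XL IP, and 319 and 317 CPM in the XL IP libraries. Here both non-XL libraries lay below all XL libraries. The XL IP replicates were close, at 318 CPM ± 1.77 (SD, n = 2), and lay below both XL inputs (350 CPM ± 7.96, SD, n = 2).

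7SK had the lowest level in the inputs and the non-XL IP, and the widest relative range over the libraries. It had 18.6 CPM in the non-XL input, 233 and 206 CPM in the XL inputs, 82.2 CPM in the non-XL IP, and 376 and 427 CPM in the XL IP libraries. The lowest value rests on 232 reads, or 0.00186% of annotated reads with a 95% Wilson interval of 0.00163% to 0.00211%, which covers counting error only. Every XL library exceeded both non-XL libraries, and both XL IP libraries exceeded both XL inputs.

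**Figure D1:**
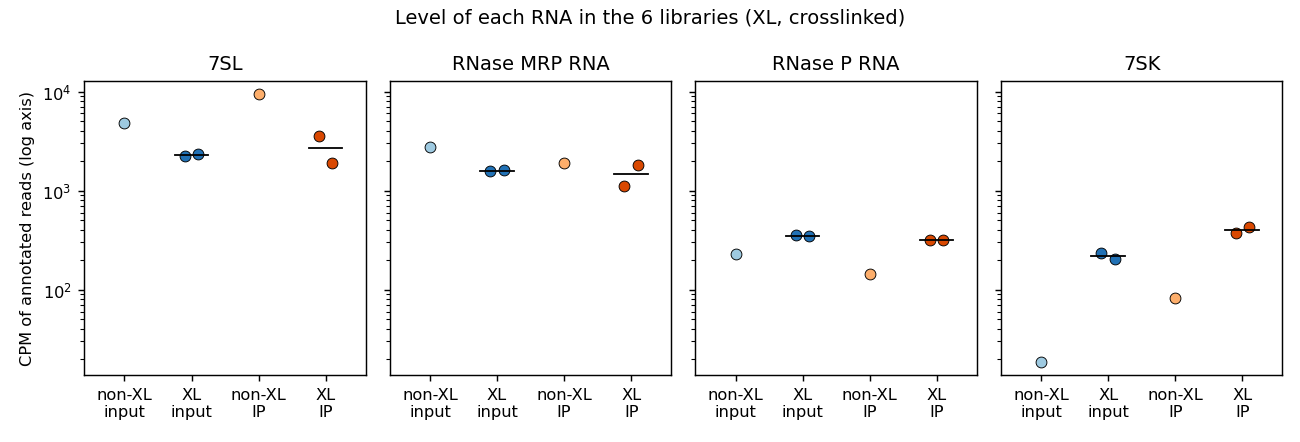
Level of each RNA in CPM of annotated reads (log axis) in the 6 libraries, 1 point per library, with a line at the mean of the XL groups. 7SK runs from 18.6 CPM in the non-XL input to 427 CPM in XL IP replicate 2, while 7SL is highest in the non-XL IP at 9347 CPM.

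The plot of levels by library shows 7SL and RNase MRP RNA above the other RNAs in every library, and 7SK below RNase P RNA except in the XL IP libraries, where it lay above it in CPM. On the scale of CPM per kilobase of RNA, which allows RNAs of different length to be compared, the XL inputs held 7546 and 7856 of 7SL, 4115 and 4214 of RNase MRP RNA, 1190 and 1152 of RNase P RNA, and 525 and 464 of 7SK. In the XL IP libraries the values per kilobase were 11786 and 6330, 2916 and 4770, 1068 and 1060, and 847 and 961. On this scale 7SK was the lowest in both groups and neighbours did not overlap, although 7SK and RNase P RNA came close in the IP. Together the members took 0.785% of annotated reads in the non-XL input, 0.442% and 0.451% in the XL inputs, 1.15% in the non-XL IP, and 0.533% and 0.446% in the XL IP libraries. The mean share of the XL IP exceeded that of the XL input by 0.0433 percentage points, less than the SD of the XL IP libraries (0.0618), with an exact permutation p of 0.667, where 2 libraries against 2 cannot go below 0.333. With rRNA left out of the total the direction turned (IP minus input -1.56 percentage points), with both XL IP libraries below both XL inputs.

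The comparison of XL IP with XL input asks which RNAs were recovered with the tagged protein beyond their level in the input libraries. No member rose. RNase MRP RNA and both transcripts of RNase P RNA fell, and 7SL and 7SK did not pass the test. In edgeR's quasi-likelihood test with TMM scaling, which sets the bulk of features near 0, 0 of 6 members were higher and 3 were lower. Of all 13471 features tested, 55.5% were called, 29.6% as higher and 26% as lower, so 3 calls among 6 members is close to the background. Both RNase P RNA transcripts are among the 3, and they are not independent. The median log2 fold change of the members was -0.70, against -0.03 over all features tested. The member median counts both 7SL genes and both RNase P RNA transcripts, so it is not one of independent members. RNase P RNA transcript RA fell by 1.04 on the log2 scale (SE 0.21, adjusted p = 0.00342 in edgeR) and transcript RB by 0.84 (SE 0.21, adjusted p = 0.00869 in edgeR). RNase MRP RNA fell by 0.92 (SE 0.28, adjusted p = 0.0227 in edgeR). In CPM, before TMM scaling, the XL IP mean was 0.909 times the XL input mean for RNase P RNA and 0.923 times for RNase MRP RNA.

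For 7SL the log2 fold change was -0.56 for either gene (SE 0.32, adjusted p = 0.165 in edgeR), and for 7SK it was 0.06 (SE 0.23, adjusted p = 0.840 in edgeR). The calls of RNase MRP RNA and RNase P RNA were lost with library size alone as the scale, in limma, and without either XL IP library. Without XL IP replicate 1 the log2 fold change of RNase MRP RNA was -0.31 and that of transcripts RA and RB -0.74 and -0.55, and without XL IP replicate 2 they were -0.93, -0.65 and -0.44. The scale decided the sign for the others: with library size alone, which moved the median of all features to 0.76, the value of 7SL was 0.23 and that of 7SK was 0.87 (adjusted p = 0.00121 in edgeR), close to that median. With rRNA left out of the library size the median of all features was -0.36, 7SL fell by 0.90 (adjusted p = 0.00345 in edgeR), and 7SK was at -0.25.

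**Figure D2:**
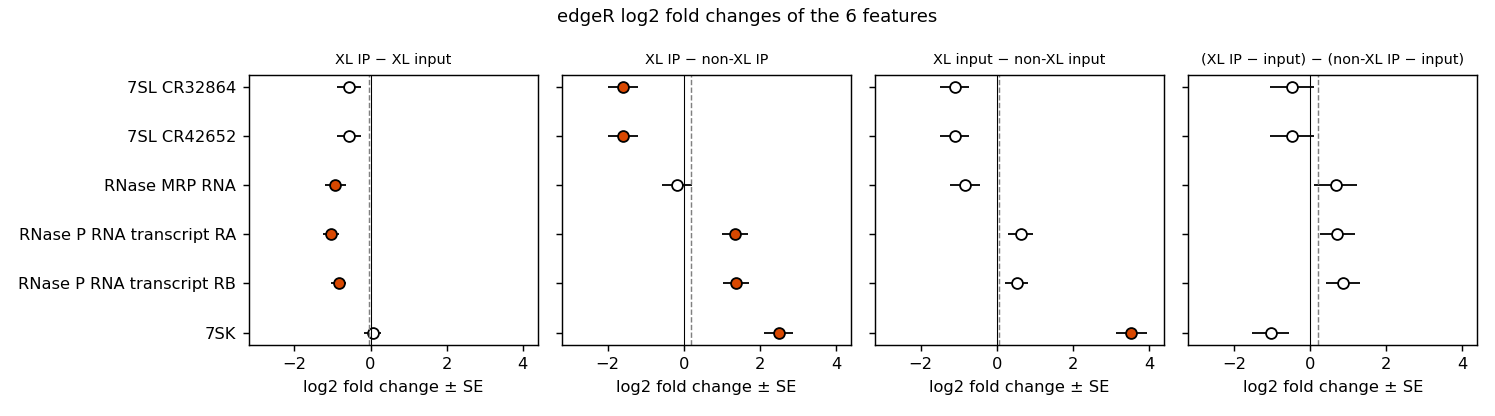
Log2 fold change of each member in the edgeR comparisons (points) with its standard error (bars), filled where the adjusted p is under 0.05, with the median of all features as a dashed line. In XL IP against XL input the 6 members lie between -1.04 and 0.06, while 7SK is at 2.50 and 3.53 in the comparisons of XL with non-XL IP and input.

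The plot of fold changes by comparison shows that the members did not move as a group. Values by pair of libraries show the same spread without any model. In CPM, the log2 ratio of IP to input for 7SL was 0.64 in XL pair 1, -0.31 in XL pair 2 and 0.95 without crosslinking. For RNase MRP RNA it was -0.50, 0.18 and -0.53 in the same order, so the XL pairs pointed in opposite directions for both RNAs. RNase P RNA had -0.16, -0.12 and -0.68, below 0 in each pair. 7SK had 0.69, 1.05 and 2.15, above 0 in each pair and highest without crosslinking. With rRNA left out of the totals, 7SK was at -0.48, -0.03 and 0.53, and the other 3 RNAs were below 0 in all pairs, from -2.29 to -0.53.

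**Figure D3:**
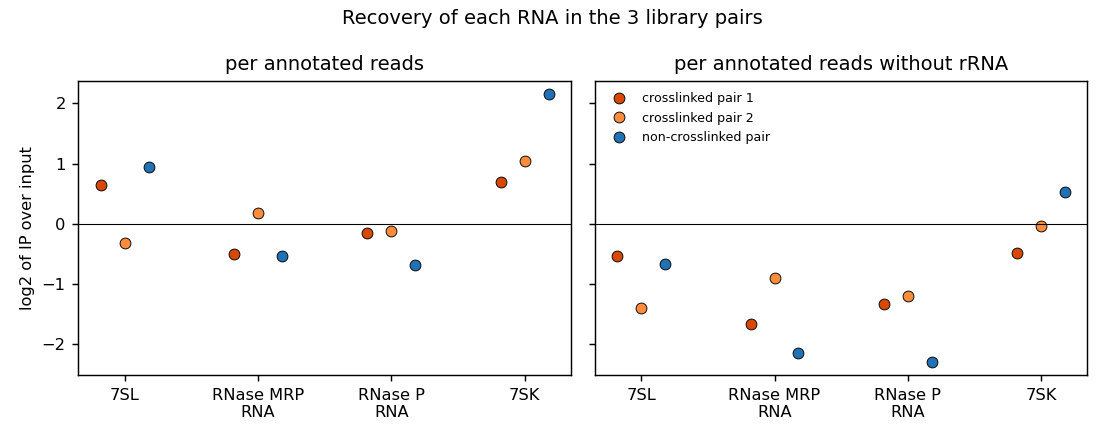
Log2 ratio of IP to input for each RNA in the XL pairs and the non-XL pair, with all annotated reads (left) or annotated reads without rRNA (right) as the total. 7SK is the highest of the 4 RNAs in every pair, at 2.15 in the non-XL pair on the left.

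Ratios between members within a library do not depend on the scale. There were 0.0809 reads of 7SK per read of RNase P RNA in the non-XL input, 0.656 and 0.598 in the XL inputs, 0.574 in the non-XL IP, and 1.18 and 1.35 in the XL IP libraries. This ratio was higher in both XL IP libraries than in both XL inputs (1.26 ± 0.120 against 0.627 ± 0.0407, SD, n = 2 each), with an exact permutation p of 0.333, the smallest that 2 libraries against 2 can give. Reads of 7SK per read of RNase MRP RNA were 0.00671 in the non-XL input, 0.148 and 0.128 in the XL inputs, 0.0430 in the non-XL IP, and 0.338 and 0.234 in the XL IP libraries, again without overlap between the XL groups. The ratio of 7SL to RNase MRP RNA, in contrast, was 1.44 and 1.46 in the XL inputs and 3.16 and 1.04 in the XL IP libraries, where the replicates lay on both sides of the inputs.

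The inputs with and without crosslinking were compared to ask whether a member's level among the input reads differed between them. The non-XL input is 1 library, so irradiation and the library itself cannot be told apart. 7SK rose, and no other member passed the test with TMM scaling and the standard filter. Its level was 11.8 times as high in the XL inputs as in the non-XL input in CPM, and the log2 fold change was 3.53 (SE 0.40, adjusted p = 3.22e-05 in edgeR). This fit used all 6 libraries, and it takes the single non-XL library of each kind to vary like the XL ones. Of 20199 features tested, 8.37% were called, 3.96% as higher and 4.41% as lower, and of the 6 members 1 was higher and 0 were lower. The call for 7SK held under every alternative except limma (log2 fold change 3.51, adjusted p = 0.109). In this comparison limma called 0 of all 101097 features, so its result does not set 7SK apart.

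7SL differed the other way between the inputs without passing the test, with a log2 fold change of -1.11 for either gene (SE 0.39, adjusted p = 0.0844 for CR32864 in edgeR). It had 2.10 times as many CPM in the non-XL input. RNase MRP RNA had -0.84 (SE 0.39, adjusted p = 0.199 in edgeR). RNase P RNA had 0.62 for transcript RA and 0.52 for RB (adjusted p = 0.251 and 0.343 in edgeR). With library size alone, 7SL and RNase MRP RNA passed as lower (-1.07 for either 7SL gene and -0.80, adjusted p = 0.00687 for CR32864 and 0.0427 for RNase MRP RNA in edgeR). 7SL also passed as lower when rRNA was left out of the library size, when 10 counts were required in each library, and when features were summed by gene (-1.21, -0.89 and -1.20). RNase MRP RNA passed as lower when rRNA was left out (-0.93, adjusted p = 0.0222 in edgeR). Both RNase P RNA transcripts passed as higher when 10 counts were required (0.84 and 0.74, adjusted p = 0.0268 and 0.0426 in edgeR).

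**Figure D4:**
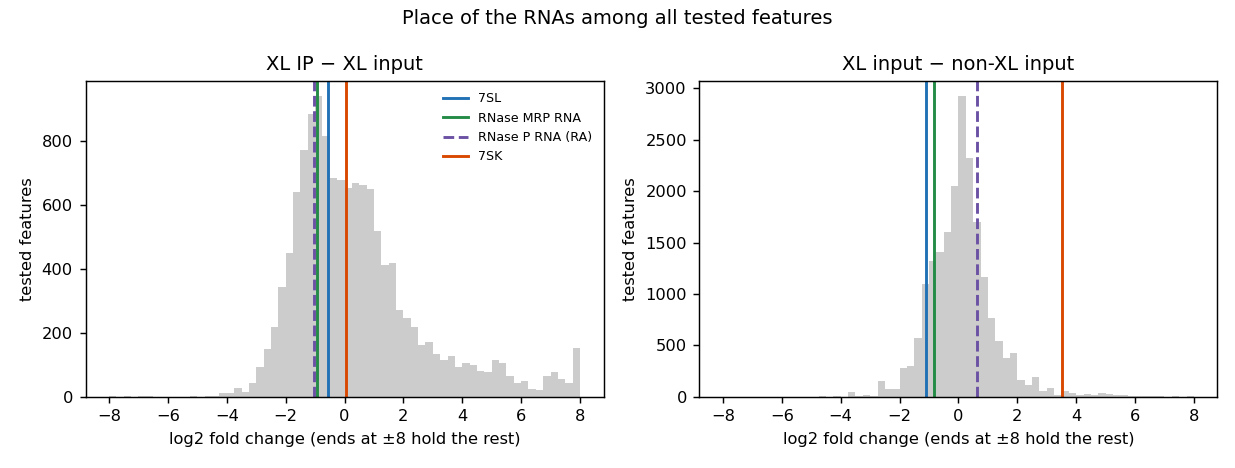
Number of tested features by log2 fold change (grey bars) in XL IP against XL input (left) and XL input against non-XL input (right), with lines at the members. In XL input against non-XL input 7SK, at 3.53, lies far to the right of the median of all features (0.05), and 7SL, at -1.11, lies to its left.

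As the distribution of all features shows, 7SK was far from the centre but was not alone there. Among the other small nuclear RNAs (snRNAs), 14 of 29 tested were higher in the XL inputs and 0 were lower, the median being 1.19 on the log2 scale, and 4 of the 29 lay above 7SK. Of 15 scaRNAs tested, 11 were higher, with a median of 3.53, and 7 lay above 7SK. Of 235 small nucleolar RNAs (snoRNAs) tested, 129 were higher and 3 lower, with a median of 1.89. 7SL and RNase MRP RNA had negative values in this comparison, as did the median of 267 tRNA features (-0.18).

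The XL IP was then compared with the non-XL IP, which measures in the same way what the beads recover without crosslinking from cells that also held the tagged protein. 7SK and RNase P RNA rose, 7SL fell, and RNase MRP RNA did not pass the test. Of the 6 members, 3 were higher and 2 lower, against 9.99% of all 20199 features called (3.52% as higher and 6.47% as lower). The calls count both RNase P RNA transcripts and both 7SL genes, which are not independent. 7SK was 4.88 times as high in CPM, with a log2 fold change of 2.50 (SE 0.38, adjusted p = 0.000479 in edgeR), and its call held in all 12 alternatives. 0 of the 29 other snRNAs lay above it in this comparison, while 2 of 15 scaRNAs and 21 of 235 snoRNAs did. The 267 tRNA features tested lay below 0 at the median, as 7SL did, with -1.02 against 0.19 over all features tested.

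7SL was 3.45 times as high in CPM in the non-XL IP as in the XL IP, and its log2 fold change was -1.59 for either gene (SE 0.39, adjusted p = 0.0136 in edgeR). That call was lost in limma (adjusted p = 0.184 for CR32864) and without XL IP replicate 2 (-1.58, adjusted p = 0.0786 for CR32864 in edgeR). RNase P RNA rose by 1.34 (transcript RA, SE 0.35) and 1.38 (RB, SE 0.34), with adjusted p = 0.0188 and 0.0153 in edgeR. These calls were lost with DESeq2 size factors, in DESeq2's own test, and without either XL IP library (0.98 and 0.99 without replicate 1, 0.96 and 1.01 without replicate 2). RNase MRP RNA had a log2 fold change of -0.17 (SE 0.40, adjusted p = 0.847 in edgeR).

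Both XL groups lay on the same side of their non-XL library for 7SK, 7SL and RNase P RNA. In the inputs 7SL and RNase P RNA did not pass the test. RNase MRP RNA also had values below 0 in both, at -0.17 in the IP and -0.84 in the inputs. The interaction term was therefore used to ask whether IP over input itself differed with crosslinking. In edgeR 0 of 6 members passed, against 2.51% of 20199 features (1.71% as higher and 0.797% as lower), and 1 member had an unadjusted p below 0.05. DESeq2 called 0 members, beside 8 features as higher and 117 as lower of all 20199. For limma there were 2 members, beside 921 features as higher and 5859 as lower of 101097. The member with the low unadjusted p was 7SK, whose log2 difference was -1.04 (SE 0.49, unadjusted p = 0.0481, adjusted p = 0.297 in edgeR). The others had -0.48 for 7SL, 0.67 for RNase MRP RNA, and 0.72 and 0.86 for RNase P RNA transcripts RA and RB. Medians of classes similar to 7SK were also below 0: -1.36 for the other snRNAs, -1.88 for scaRNAs and -0.98 for snoRNAs. Over all features the median was 0.22. Of 29 other snRNAs 18 lay below 7SK, as did 9 of 15 scaRNAs and 115 of 235 snoRNAs. The 2 limma calls were the RNase P RNA transcripts, at 0.54 and 0.67 (adjusted p = 0.0479 and 0.0222 in limma).

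The transcripts of RNase P RNA differ in the reads listed for RA beyond those for RB. Transcript RA had 1518 reads in the non-XL input, 2420 and 2567.5 in the XL inputs, 150 in the non-XL IP, and 360 and 477.5 in the XL IP libraries. Transcript RB had 1348, 1988 and 2137.5, 139, and 345 and 448.5 in the same order. The excess of RA, as a share of the reads of both, was 5.93% in the non-XL input, 9.80% and 9.14% in the XL inputs, 3.81% in the non-XL IP, and 2.13% and 3.13% in the XL IP libraries. It was lower in both IP groups than in any input, at 2.63% ± 0.710 in the XL IP against 9.47% ± 0.468 in the XL input (SD, n = 2 each, exact permutation p = 0.333, the smallest possible). In the non-XL IP the value rests on 11 excess reads, with a 95% Wilson interval of 2.14% to 6.69%.

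Introns of ATPsynC, the gene that RNase P RNA overlaps, were set beside it. They had 4383 reads in the non-XL input, 5547 and 5289 in the XL inputs, 384 in the non-XL IP, and 292 and 515 in the XL IP libraries. Per read of RNase P RNA that was 1.53, 1.26 and 1.12, 1.33, and 0.414 and 0.556, lowest in both XL IP libraries (exact permutation p = 0.333 against the XL inputs). Either intron feature fell by 2.25 on the log2 scale in XL IP against XL input (SE 0.25, adjusted p = 0.00018 in edgeR), beside -1.04 and -0.84 for the RNase P RNA transcripts. The part of the intron reads in the values of RNase P RNA was not tested.

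**Figure D5:**
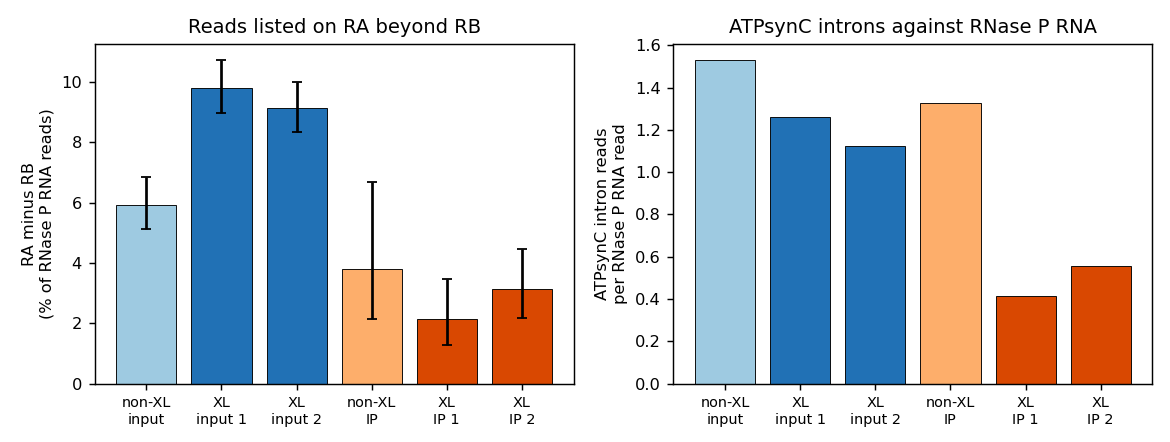
Reads listed for RNase P RNA transcript RA beyond RB, as a percent of the reads of both with 95% Wilson intervals (left), and ATPsynC intron reads per RNase P RNA read (right), by library. Both measures are lowest in the XL IP libraries, at 2.13% and 3.13% on the left.

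The bars of excess and intron reads thus put the XL IP libraries below all inputs on both measures, and the non-XL IP between them on the left and among the inputs on the right.

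Genes listed for proteins of the same complexes, and for RNA polymerase III transcription and La, were read in XL IP against XL input. The lists were fixed, and exon reads were summed by gene. In that fit 59.4% of 8916 entries summed by gene were called, 2789 as higher and 2506 as lower. Each list had at most 5 tested genes, so its count of calls is not read as a trait of the list. Of 9 genes listed for proteins of the signal recognition particle and its receptor, Srp54 among them, 5 could be tested, of which 1 was higher and 1 lower. Srp72, a protein of the particle, had 2.22 CPM in the non-XL input, 2.55 and 2.84 CPM in the XL inputs, 26.1 CPM in the non-XL IP, and 14.6 and 6.64 CPM in the XL IP libraries, all IP libraries above all inputs. It rose by 1.00 on the log2 scale (SE 0.33, adjusted p = 0.0129 in edgeR), a call that was lost without XL input replicate 1 or 2 or XL IP replicate 1 (0.86, 0.76 and 0.61), and with DESeq2's test and rRNA left out of the library size. In XL IP against non-XL IP the log2 fold change of Srp72 was -1.24 (SE 0.33). The gene that fell in XL IP against XL input was Srp54 (-1.62, adjusted p = 0.000367 in edgeR), which despite its name is known in flies as a splicing factor, the protein of the particle being Srp54k (-0.16, adjusted p = 0.760 in edgeR).

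Of 5 genes for the 7SK complex and P-TEFb, 4 could be tested, of which 0 were higher and 2 lower. These were bin3, which caps 7SK (-1.44, adjusted p = 0.000216 in edgeR), and CycT, the cyclin of P-TEFb (-0.87, adjusted p = 0.000812 in edgeR). CycT lost its call without XL IP replicate 2 (-0.50). Of 7 genes for proteins of RNase P and MRP only 1 had enough reads, and it was not called. Of 9 genes for RNA polymerase III transcription and La, 5 could be tested and 3 fell: Brf (-1.86), RpIIIC160 (-1.16) and La (-0.87), with adjusted p = 0.0245, 0.0365 and 0.0382 in edgeR. La binds the ends of new RNA polymerase III transcripts. Each of these 3 calls was lost in DESeq2's test, and without XL IP replicate 1 for Brf (-0.84), XL IP replicate 2 for RpIIIC160 (-0.35), and XL input replicate 2 or either XL IP replicate for La (-0.90, -0.57 and -0.71). Brf had 0 reads in XL IP replicate 1, and without XL IP replicate 2 its fitted value was -6.96, which is no bound. RpIIIC160 and La also lost it with DESeq2 size factors, and with library size alone none of the 6 genes that fell in these lists passed.

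The profile of 7SL over the 6 libraries was set against 1739 features with a mean of at least 10 CPM, on log2(CPM + 1). The features most like it were the snRNA U5:23D (Pearson's r = 0.949), an intron of RpS5a (0.942) and the 28S rRNA pseudogene CR40741 (0.931). U5:23D had 289 CPM in the non-XL input, 170 and 157 CPM in the XL inputs, 333 CPM in the non-XL IP, and 232 and 175 CPM in the XL IP libraries. Both non-XL libraries were highest, as for 7SL and RNase MRP RNA. These correlations describe 6 libraries that share their depth and rRNA differences.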

How the data were processed

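eCLIP libraries were made from transfected OSS cells, per the labels' protocols. The submitters' processing notes list bcl2fastq 2.19, STAR 2.5.2b and bedtools 2.29.0, with no role given; strand and removal of duplicate reads are not given in the sources used here. For each library the authors deposited estimated counts per feature, some of them divided between features, and RPM values. Reads outside the annotation (2.15% to 13.6%) were left out. A deposited table of comparisons was not used. Groups and replicate numbers came from the titles. The members and lists were chosen with earlier results of these data known.

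Estimated counts were rounded and tested with edgeR 4.0.16 (R 4.3.3; filterByExpr, TMM, two-sided quasi-likelihood F test, Benjamini-Hochberg, threshold 0.05): 4 crosslinked libraries for the first comparison, all 6 for the others. The fit was tested on simulated counts with few changed features, as many raised as lowered, so that test does not cover the choice of scale. Alternatives were DESeq2 1.42.0 size factors and test, library size alone or without rRNA, filters of at least 10 counts or 1 read, limma 3.58.1 on log2(RPM + 1), features summed by gene, a replicate block, and each crosslinked library left out. Replicates differed beyond sampling noise (chi-square per degree of freedom 7.60 for inputs, 6.46 for IP). Same-numbered libraries had deviations with a correlation of 0.102 over 1556 features, in 2 pairs that share only a number. Named genes were every member, and per protein list the called genes with the largest change, at most 3. Shares and ratios used Python 3.11.15 with scipy 1.17.1.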

Additional observations from a re-analysis of the deposited data

How the results depend on the processing

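Of 300 member values under alternatives, 234 kept direction and side of the threshold, 25 lost the call, 26 gained one and 15 turned sign. In XL IP against XL input, library size alone called 5986 of all 13471 features as higher and 1061 as lower, and without rRNA these were 3343 and 4759. With at least 10 counts they were 1075 and 1132 of 3266, unfiltered 5498 and 6222 of 89606, and in limma 6541 and 1237 of 74544. Beside these, 3 member calls became 1 with library size alone (7SK, higher), 5 with library size without rRNA, with at least 10 counts and with no filter beyond 1 read, and 0 in limma. Leaving out 1 library gave 0 to 5. The replicate block gave 3 (7SL CR32864 -0.63, adjusted p = 0.078 in edgeR) and changed no call. In XL against non-XL IP, 5 calls became 3 with DESeq2 size factors, DESeq2's test and limma, and 1 to 5 without 1 library. Over all features in XL against non-XL IP, DESeq2 size factors called 365 as higher and 2106 as lower of 20199. DESeq2's test called 215 and 402, and limma 1324 and 8205 of 101097. In XL against non-XL input, 1 member call became 4 with library size alone and without rRNA, 5 with at least 10 counts, 0 in limma and 3 summed by gene. Over all features these settings called 832 and 580 of 20199, 656 and 915 of 20199, 617 and 488 of 2441, 0 of 101097, and 683 and 843 of 11736. The interaction gave 1 member call with at least 10 counts (7SK -1.23, adjusted p = 0.0485 in edgeR) and 2 in limma. Over all features these settings called 361 as higher and 305 as lower of 2441, and 921 and 5859 of 101097. The share difference was -1.56 percentage points without rRNA and -0.000451 to 0.0870 without 1 library. Signs turned for 7SK in XL IP against XL input (-0.25 without rRNA, -0.19 with at least 10 counts, -0.25 unfiltered, -0.0274 by gene, -0.55 to 0.45 without 1 library), for 7SL there (0.23 with library size alone for either gene, 0.0723 and 0.0704 in limma, -1.08 to 0.20 without 1 library), for RNase MRP RNA in XL against non-XL IP (-0.96 to 0.0817) and in the interaction (-0.00313 to 0.77 without 1 library), and for CycT (0.0149 with library size alone). The cause was not tested. Of all calls in XL IP against XL input, 53.2% were higher with TMM, 84.9% with library size alone and 41.3% without rRNA. In XL against non-XL IP these were 35.3%, 24.8% and 45.8%, and 14.8% with DESeq2 size factors. In the inputs they were 47.3%, 58.9% and 41.8%. In the interaction they were 68.2%, 49.5% and 80.5%, and 17.2% with DESeq2 size factors. limma was not run for protein genes summed by gene. IP depth limits low values: 3 reads are 1.03 to 1.49 CPM there.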
